A study of Homo sapiens with 8 samples.

Results

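The genes described here are the receptors and enzymes of sphingosine-1-phosphate (S1P), measured by RNA sequencing in MHCC-97H cells, a human hepatocellular carcinoma line with high metastatic capacity. They were chosen by gene symbol: the receptors S1PR1, S1PR2, S1PR3 and S1PR5, the sphingosine kinases SPHK1 and SPHK2, the S1P lyase SGPL1 and the S1P phosphatase SGPP1. All 8 were found among the 20263 genes of the deposited table. Cells were treated for 24 hours with lenvatinib, a drug that blocks several receptor tyrosine kinases, those of VEGF and FGF among them, at 40, 60, 80 or 100 µM (1 library per dose), or with its solvent DMSO (4 libraries). The cells in both arms were the same cultured line without any genetic change named in the labels. The study asked how the transcriptome of treated cells differed from that of the untreated line. The family was proposed with the difference between lenvatinib and DMSO in view, so that difference is given as a description. Calls of members in fits over all genes are stated for completeness, and nothing is read from them.

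S1P is a signalling lipid made inside cells when SPHK1 or SPHK2 adds a phosphate to sphingosine, the backbone released from ceramide. It leaves the cell through transporters and acts on a family of G protein-coupled receptors at the surface of the same or of neighbouring cells. Inside the cell S1P is either cut irreversibly by the lyase SGPL1, or returned to sphingosine by the phosphatases SGPP1 and SGPP2. In the liver the receptors are best known from endothelial cells and stellate cells, and SPHK1 has been studied as a kinase that tumour cells raise.

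The libraries differed in ways that touch every value below. The 60 µM library held 10181973 counts and the others between 30077668 and 37384578, and it had reads for 11076 genes, against 13290 to 14340 genes elsewhere. Libraries also differed in how levels followed the GC content of genes. This was measured as a GC slope, which says by how much a library's log2 levels, relative to the average library, change for every 10 percentage points of transcript GC content. The slope was 0.67, 1.82, -0.58 and -0.60 at 40, 60, 80 and 100 µM, and 0.28, -0.50, -0.99 and -0.10 in DMSO libraries 1 to 4. What gave rise to these slopes was not tested. Of the liver markers, TTR and GPC3 had 0 reads in all libraries, and ALB had 6, APOA1 10, TF 4 and AFP 2 reads in total, while FGB had 785, HNF4A 1352 and SERPINA1 99 reads. All reads of ALB, APOA1, TF and AFP came from the 60 µM library. HNF4A, a hepatocyte transcription factor, averaged 1.78 CPM (counts scaled to library size with TMM factors) with lenvatinib and 8.42 CPM with DMSO. FGB, a fibrinogen chain, averaged 0.286 CPM with lenvatinib and 5.00 CPM with DMSO. Both passed the test as lower with the GC slope covariate described below (edgeR, adjusted p = 0.0229 and 0.00421). Other hepatocyte markers were higher with lenvatinib, at few reads. SERPINA1 averaged 0.594 CPM with lenvatinib and 0.413 CPM with DMSO. ALB, APOA1 and TF averaged 0.241, 0.402 and 0.161 CPM with lenvatinib and 0 CPM with DMSO. CYP3A4 had 1 read, with DMSO. KRT8 and KRT18, keratins of simple epithelia, averaged 4979 and 3537 CPM with lenvatinib, and 5982 and 3806 CPM with DMSO, while the epithelial adhesion genes CDH1 and EPCAM had 232 and 125 reads in total. PTPRC, CD3E, LST1, KDR and COL1A2 had 0 reads, while the endothelial gene EGFL7 and the mesenchymal genes COL1A1, PDGFRB and DCN were expressed. CD68, a macrophage marker, averaged 5.79 CPM with lenvatinib and 8.25 CPM with DMSO and was lower with the covariate (edgeR, adjusted p = 0.0240). Summed over its 8 markers, the hepatocyte list ranged from 1.53 to 6.12 CPM with lenvatinib and from 11.3 to 15.9 CPM with DMSO. The sum of the 6 endothelial markers, 103.5 to 599.6 CPM with lenvatinib and 54.5 to 172.5 CPM with DMSO, was nearly all EGFL7, which averaged 272.5 and 108.2 CPM in that order. Their part in the results below was not tested. The labels do not say whether libraries of an arm came from separate cultures, so the spread behind the p-values below is one between libraries and may be technical. In bulk RNA, fewer cells that express a gene and less RNA per cell cannot be told apart.

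Position and promoter sequence are given first for S1PR3, the tested receptor with the largest log2 fold change. In the deposited table (GRCh38) S1PR3 lies on the plus strand at chr9:88991447-89005010. RefSeq (GRCh38.p14) has entries for 7 of the 8 genes and lists 2 transcription starts for S1PR3, at 88990863 and at 88991468. The 250 bases before each are shown because the upstream one coincides with the first base of a second row of the table, C9orf47, described with the S1PR3 values below. Capitals mark matches to GGGCGG, the GC box, on either strand, and matches may overlap each other. The first window is chr9:88990613-88990862 and the second chr9:88991218-88991467, both on the plus strand and written from 5′ to 3′.

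S1PR3 start 1: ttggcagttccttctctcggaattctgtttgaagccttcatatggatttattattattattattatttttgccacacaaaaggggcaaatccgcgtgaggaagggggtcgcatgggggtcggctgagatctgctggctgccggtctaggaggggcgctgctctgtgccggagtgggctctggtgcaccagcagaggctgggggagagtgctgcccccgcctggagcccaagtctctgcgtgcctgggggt

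S1PR3 start 2: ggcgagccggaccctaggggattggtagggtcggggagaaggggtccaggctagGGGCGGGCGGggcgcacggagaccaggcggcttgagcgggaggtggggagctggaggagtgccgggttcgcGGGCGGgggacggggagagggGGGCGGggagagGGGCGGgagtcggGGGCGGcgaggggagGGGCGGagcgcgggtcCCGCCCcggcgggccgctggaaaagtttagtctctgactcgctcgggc

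The windows differ in base composition, with 57.2% GC before the first start and 76.4% GC before the second. The first holds 0 GC boxes and the second 8, and the motif occurs in 42.6% of the 35116 RefSeq windows of the same length. Matches to TGACTCA, the AP-1 motif, and to GGAATG, a TEAD motif, were found in neither window on either strand. These motifs occur in 4.2% and 11.9% of all windows. Of the 3 windows of SPHK1, the first holds 1 TEAD motif and 1 GC box, the second 2 GC boxes and the third 1 AP-1 motif.

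S1PR3, a receptor that couples to several classes of G protein, had the highest TPM of the S1P receptors at 80 and 100 µM lenvatinib (7.60 and 6.46 TPM). It had 5.56, 3.54, 14.25 and 12.46 TMM-scaled CPM at 40, 60, 80 and 100 µM, against 1.78, 2.95, 3.70 and 2.44 CPM in DMSO libraries 1 to 4. The counts behind these values were 130, 22, 682 and 550 reads with lenvatinib, and 49, 105, 154 and 82 reads with DMSO. In CPM the 40, 80 and 100 µM libraries lay above every DMSO library. In deposited TPM only those at 80 and 100 µM did, with 1.51 TPM at 40 µM against 2.12 TPM in DMSO library 3. The 60 µM value rests on 22 reads (exact Poisson 95% interval 2.22 to 5.36 CPM, counting error only) and lay below DMSO library 3. The mean was 8.95 ± 5.20 CPM with lenvatinib and 2.72 ± 0.813 CPM with DMSO (SD, n = 4 each), and the log2 fold change of lenvatinib over DMSO was 1.72 ± 0.56 (SE, edgeR).

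With the GC slope of each library as a covariate in the edgeR fit, the log2 fold change of S1PR3 was 2.09 ± 0.18. When each library was left out in turn under that fit it ranged from 1.98 to 2.14. Libraries with close GC slopes can be set side by side without a model, but the slopes at 40 and 60 µM lay above those of every DMSO library. At 80 and 100 µM (slopes -0.58 and -0.60) S1PR3 stood at 14.25 and 12.46 CPM, against 2.95 CPM in DMSO library 2 (slope -0.50), the closest one. DMSO libraries 3 and 4, with slopes on either side (-0.99 and -0.10), had 3.70 and 2.44 CPM. The transcript has 49.1% GC, the median of all genes tested (49.1%).

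The row C9orf47 (chr9:88990863-88996140, plus strand) overlaps S1PR3, and GENCODE v29 assigns transcripts from that start to S1PR3 itself. It was looked at after its values were seen. It held 16, 0, 62 and 30 reads at 40, 60, 80 and 100 µM, and 4, 3, 3 and 6 reads in DMSO libraries 1 to 4. The 40, 80 and 100 µM libraries were above all DMSO libraries, as for S1PR3, and no read was counted at 60 µM. The limit that a count of 0 allows there is 3 reads, or 0.295 CPM by library total, without the TMM factor. The deposited TPM, a value scaled by transcript length, was low relative to the counts of S1PR3 in DMSO library 2 and at 60 µM, where scaled reads per TPM reached 1.85 times the gene's median.

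**Figure D1:**
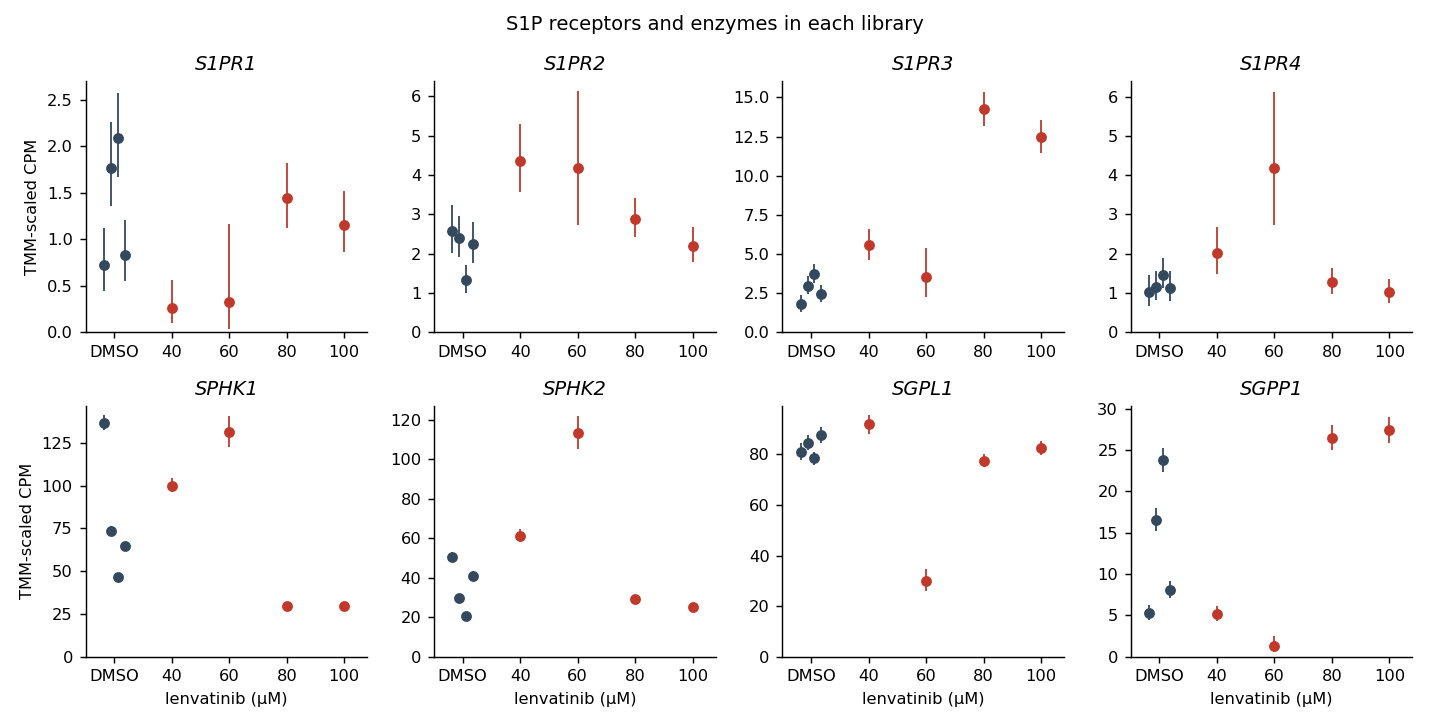
TMM-scaled CPM of 8 genes (y axes, one scale per gene) in the DMSO libraries and at each lenvatinib dose in µM (x axes); points are single libraries and bars are exact Poisson 95% intervals, which cover counting error only. S1PR3 stood at 14.25 and 12.46 CPM at 80 and 100 µM and at no more than 3.70 CPM with DMSO, SPHK1 at 29.4 and 29.5 CPM at these doses and at no less than 46.7 CPM with DMSO.

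The other receptors were low. S1PR2, which also serves as a receptor for conjugated bile acids, had 4.36, 4.19, 2.88 and 2.20 CPM at 40, 60, 80 and 100 µM, against 2.57, 2.39, 1.32 and 2.23 CPM with DMSO. The 40, 60 and 80 µM libraries were above every DMSO library, and the 100 µM library lay within the DMSO range. The mean was 3.41 ± 1.04 CPM with lenvatinib and 2.13 ± 0.556 CPM with DMSO (SD, n = 4 each), with a log2 fold change of 0.67 ± 0.46 (SE), or 0.41 ± 0.26 with the covariate. S1PR2 shares 83 exonic bases with DNMT1 on the same strand.

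S1PR1, the receptor that guides lymphocyte egress and endothelial barrier function, had 0.257, 0.322, 1.44 and 1.16 CPM at 40, 60, 80 and 100 µM, against 0.725, 1.77, 2.09 and 0.833 CPM with DMSO. These rest on 6, 2, 69 and 51 reads with lenvatinib and on 20, 63, 87 and 28 reads with DMSO. The 40 and 60 µM libraries were below every DMSO library and the other 2 were within the DMSO range. The log2 fold change was -0.72 ± 0.69 (SE), and -0.33 ± 0.35 with the covariate.

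S1PR5, known from natural killer cells and oligodendrocytes, had 0 reads in all 4 lenvatinib libraries and 2 reads in all with DMSO, both in library 3. It was therefore not tested, and no fold is given. The remaining receptor of the family, S1PR4, is a lymphoid receptor that was not among the 8 genes chosen. It had 2.01, 4.19, 1.27 and 1.02 CPM at 40, 60, 80 and 100 µM, against 1.01, 1.15, 1.47 and 1.13 CPM with DMSO, so that only the 40 and 60 µM libraries were above the DMSO range.

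The make-up of the receptor reads changed between libraries along with S1PR3. Its share of the reads of S1PR1 to S1PR5 was 45.6% in the 40 µM library (Wilson 95% interval 39.9% to 51.4%) and 28.9% in the 60 µM library (19.96% to 39.96%). The 80 µM library had 71.8% (68.8% to 74.6%) and the 100 µM library 74.0% (70.8% to 77.1%). With DMSO the share was 29.2%, 35.7%, 42.9% and 36.8% in libraries 1 to 4. At 80 and 100 µM the lower bounds lay above the share of every DMSO library, while the 60 µM share was below all of them. The mean share was 55.1 ± 21.7% with lenvatinib and 36.1 ± 5.62% with DMSO (SD, n = 4 each).

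SPHK1, the mainly cytosolic sphingosine kinase that moves to the plasma membrane when cells are stimulated, was among the most abundant of the 8 genes. It had 100.1, 131.5, 29.4 and 29.5 CPM at 40, 60, 80 and 100 µM, against 136.7, 73.8, 46.7 and 64.5 CPM with DMSO. The 80 and 100 µM libraries were below every DMSO library, and the 40 and 60 µM libraries were within the DMSO range. The mean was 72.6 ± 51.5 CPM with lenvatinib and 80.4 ± 39.2 CPM with DMSO (SD, n = 4 each). The log2 fold change was -0.15 ± 0.58 (SE), and -0.99 ± 0.23 with the covariate. The 29.4 and 29.5 CPM at 80 and 100 µM compare with 73.8 CPM in DMSO library 2, the closest in GC slope, and with 46.7 and 64.5 CPM in DMSO libraries 3 and 4, whose slopes lie on either side.

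SPHK2, the kinase found also in the nucleus and at mitochondria, had 61.3, 113.5, 29.2 and 25.1 CPM at 40, 60, 80 and 100 µM, against 50.5, 29.7, 20.6 and 41.1 CPM with DMSO. The 40 and 60 µM libraries lay above the DMSO range and the 80 and 100 µM libraries within it. The log2 fold change was 0.69 ± 0.53 (SE), and -0.08 ± 0.11 with the covariate. SPHK2 shares 246 exonic bases with RPL18 and 661 with DBP, and SPHK1 shares 59 with PRPSAP1, all on the opposite strand. Strandedness is not given in the sources used here, so reads in these stretches cannot be assigned to one gene.

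The ratio of the kinases, SPHK1 reads over SPHK2 reads within a library, does not depend on the library's scaling. It was 1.63, 1.16, 1.01 and 1.18 at 40, 60, 80 and 100 µM, against 2.71, 2.49, 2.26 and 1.57 with DMSO. The 60, 80 and 100 µM libraries were below every DMSO library, and the 40 µM library exceeded DMSO library 4. The mean ratio was 1.24 ± 0.270 with lenvatinib and 2.26 ± 0.493 with DMSO (SD, n = 4 each). The same ratio in TPM was 1.92, 1.35, 1.24 and 1.69 with lenvatinib, against 3.37, 3.25, 2.68 and 1.93 with DMSO, where the 2 arms did not overlap although 40 µM and DMSO library 4 differed by little. Both transcripts are GC-rich, with 65.5% GC for SPHK1 and 63.2% for SPHK2, against an upper quartile of 57.4% over the genes tested.

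**Figure D2:**
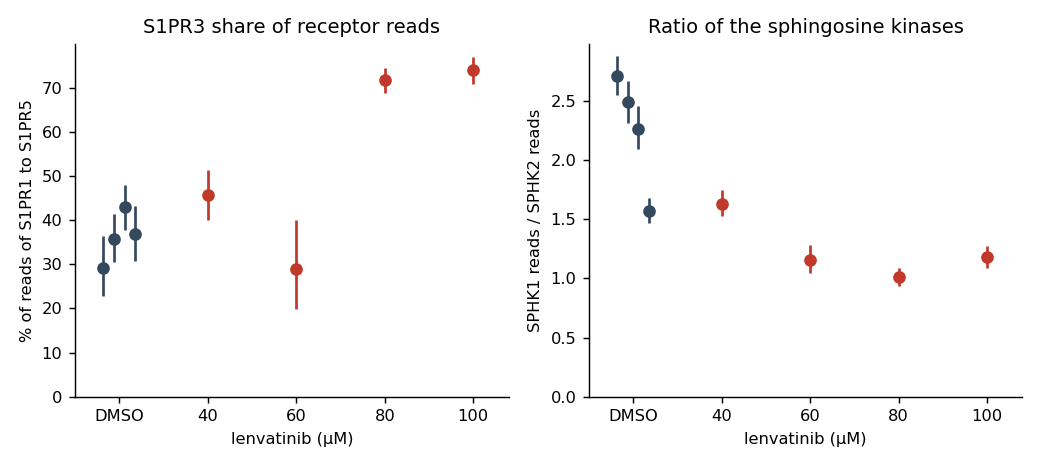
Share of S1PR3 in the reads of S1PR1 to S1PR5 in percent (left, Wilson 95% intervals) and SPHK1 reads over SPHK2 reads (right, 95% intervals from counting), for DMSO libraries and for each lenvatinib dose in µM; every point is 1 library. The S1PR3 share was 71.8% and 74.0% at 80 and 100 µM, above all DMSO libraries, and the kinase ratio was 1.16, 1.01 and 1.18 at 60, 80 and 100 µM, below all DMSO libraries.

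The enzymes that remove S1P behaved differently from each other. SGPL1, the lyase that ends the pathway, had 91.8, 30.1, 77.5 and 82.4 CPM at 40, 60, 80 and 100 µM, against 81.0, 84.6, 78.4 and 87.5 CPM with DMSO. Apart from the 60 µM library, all values lay within a narrow range of 77.5 to 91.8 CPM. In deposited TPM the spread was wider, from 19.3 to 35.0 TPM over the DMSO libraries. With lenvatinib it had 20.1, 5.98, 31.25 and 32.2 TPM at 40, 60, 80 and 100 µM. The log2 fold change was -0.23 ± 0.34 (SE), and without the 60 µM library it was 0.03.

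SGPP1, the endoplasmic reticulum phosphatase that returns S1P to sphingosine, had 5.17, 1.29, 26.5 and 27.4 CPM at 40, 60, 80 and 100 µM, against 5.29, 16.6, 23.8 and 8.09 CPM with DMSO. The 80 and 100 µM libraries were above all DMSO libraries, and the 40 and 60 µM libraries below all of them, at 40 µM by less than counting error (exact Poisson 95% interval 4.29 to 6.18 CPM) and at 60 µM on 8 reads. The mean was 15.1 ± 13.8 CPM with lenvatinib and 13.4 ± 8.40 CPM with DMSO (SD, n = 4 each). The log2 fold change was 0.17 ± 0.89 (SE), and 0.73 ± 0.15 with the covariate. Its transcript has the lowest GC content of the 8 genes (40.4%).

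Per transcript length, in deposited TPM, the enzymes stood above the receptors on average in both arms. SPHK1 averaged 47.3 TPM with lenvatinib and 67.6 TPM with DMSO, SPHK2 30.9 and 24.2 TPM, SGPL1 22.4 and 27.5 TPM, and SGPP1 9.82 and 8.67 TPM in the same order. The receptor means were 3.99 TPM with lenvatinib and 1.05 TPM with DMSO for S1PR3, 1.84 and 1.49 TPM for S1PR4, 1.45 and 1.07 TPM for S1PR2, and 0.559 and 0.964 TPM for S1PR1, so that S1PR4 had the highest receptor mean with DMSO. Within DMSO the ranges of SPHK2 and SGPL1 overlapped, as did those of the receptors S1PR1, S1PR2, S1PR3 and S1PR4 with one another, so these neighbours in the order were not separated by the spread. The range of SPHK1 in DMSO, 51.6 to 89.3 TPM, overlapped none of the others. That of SGPP1, 2.17 to 18.3 TPM, overlapped the range of the receptor S1PR4, 0.881 to 2.38 TPM. At 60 µM SGPP1 had 0.370 TPM, below S1PR4 (2.47 TPM), S1PR2 (1.10 TPM) and S1PR3 (0.398 TPM) and above S1PR1 (0.106 TPM).

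Read over all genes, the fit of lenvatinib against DMSO without the covariate called 0 of 11827 genes (0%) at an adjusted p of 0.05. The test was edgeR's quasi-likelihood test with Benjamini-Hochberg adjustment. DESeq2 called 94 genes, none of them in the family. In edgeR 523 genes had an unadjusted p under 0.05. With the covariate 386 genes were called (3.26%; 175 higher, 1.48%, and 211 lower, 1.78%). Of the 7 family members tested, 2 were among them, S1PR3 and SGPP1, both higher, and since the family was chosen on this contrast nothing is read from the count. With the covariate and 1 library left out in turn, the log2 fold change of SGPP1 ranged from 0.69 to 0.81 and that of SPHK1 from -1.14 to -0.84. S1PR3 was called in 7 of these 8 fits. Its call was lost without the 80 µM library, a fit that called 0 of 11827 genes. The call of SGPP1 was kept in only 2 of the 8, those without 40 µM and without 60 µM. These 2 fits called 1008 and 2755 of 11827 genes. SPHK1, not called with all libraries, was called in the same 2 fits. Nothing is read from these member calls either. None of the 7 members had arms that did not overlap in CPM, against 6.46% of all genes tested (3.08% with every lenvatinib library above and 3.38% with every one below DMSO). The median log2 fold change of the members was 0.17 without and -0.07 with the covariate, against -0.11 and -0.06 for all genes.

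**Figure D3:**
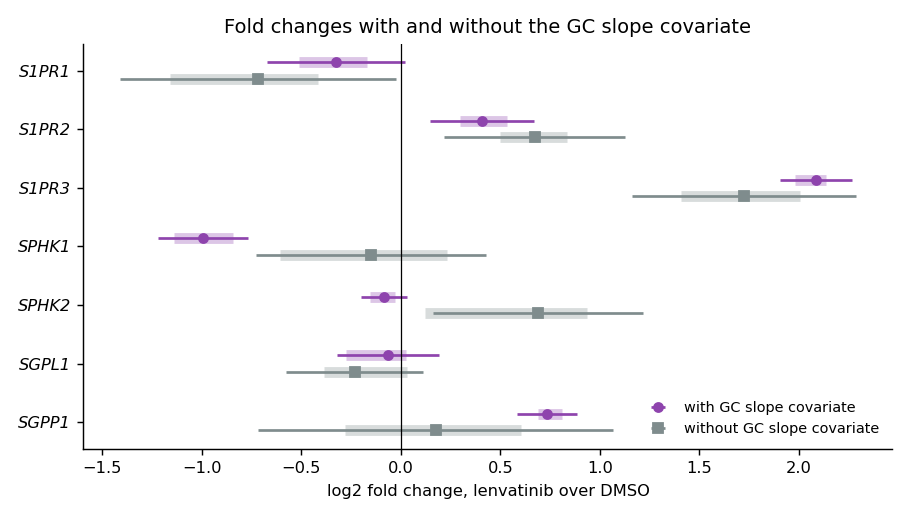
Log2 fold change of lenvatinib over DMSO (x axis) for the 7 tested genes, from the fits with (purple circles) and without (grey squares) the GC slope covariate; lines are ± 1 SE and shaded bands the range when each library is left out in turn. S1PR3 lies at 1.72 without and 2.09 with the covariate, and SPHK1 at -0.15 and -0.99.

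Whether levels followed dose within the lenvatinib libraries was tested as a slope per 20 µM. No gene was called (0 of 11827, 0%; edgeR, Benjamini-Hochberg), 875 had an unadjusted p under 0.05, and DESeq2 called 131, none of them in the family. SGPP1 had a slope of 1.02 ± 0.48 (log2 per 20 µM, SE), S1PR1 0.87 ± 0.42 and S1PR3 0.53 ± 0.31, each with an adjusted p of 0.295 in edgeR. SPHK1 had a slope of -0.77 ± 0.31 and SPHK2 of -0.65 ± 0.32, also with an adjusted p of 0.295. S1PR2 had -0.35 ± 0.27 (adjusted p = 0.367, edgeR) and SGPL1 0.03 ± 0.21 (adjusted p = 0.908, edgeR). With the covariate the slopes were 0.05 for SGPP1, 0.20 for S1PR1, 0.07 for S1PR3, -0.23 for SPHK1 and -0.04 for SPHK2. Dose and GC slope went together in these libraries, since 40 and 60 µM had positive slopes and 80 and 100 µM negative ones, and with 1 library per dose they cannot be told apart.

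The levels of most members moved with the library GC slope, and this relation was tested over the 8 libraries for the 7 tested members by exact two-sided permutation. SPHK2 followed it most closely (Pearson r = 0.993, Spearman coefficient = 1, n = 8, permutation p = 2.48e-05, the smallest the permutations can give, adjusted p = 1.74e-04). SGPP1 ran against it (r = -0.969, Spearman coefficient = -0.929, exact permutation p = 5.21e-04, adjusted p = 0.00182), as did S1PR1 (r = -0.895, Spearman coefficient = -0.881, exact permutation p = 0.00146, adjusted p = 0.00341). S1PR2 (r = 0.816, Spearman coefficient = 0.810, adjusted exact permutation p = 0.0243) and SPHK1 (r = 0.767, Spearman coefficient = 0.810, adjusted exact permutation p = 0.0289) rose with it. S1PR3 (r = -0.289, Spearman coefficient = -0.405, adjusted exact permutation p = 0.502) and SGPL1 (r = -0.735, Spearman coefficient = 0.0952, adjusted exact permutation p = 0.140) did not pass the threshold.

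Without the 60 and 40 µM libraries, the 2 farthest from the median GC slope, r was 0.989 for SPHK2, -0.914 for SGPP1, -0.906 for S1PR1, 0.740 for SPHK1, 0.595 for S1PR2 and -0.548 for S1PR3. For SGPL1 it turned to 0.428, so its negative r rests on the 60 µM library. Such relations were common in these data: 55.6% of the genes tested had an absolute r of at least 0.9, as did 2 of the 7 members. The relations of S1PR2, SPHK1 and SGPL1 depended on the unit and the scaling. S1PR2 had r = -0.133 in deposited TPM and 0.146 with library totals, and missed the threshold without the 2 farthest libraries and without 100 µM. SPHK1 had r = 0.353 in TPM and 0.487 with library totals, below the threshold, and missed it as well without the 2 farthest libraries and when DMSO library 3 or 4 or the 60, 80 or 100 µM library was left out. SGPL1 passed in TPM (r = -0.964, adjusted exact permutation p = 5.21e-04), with library totals (r = -0.932, adjusted exact permutation p = 7.38e-04) and with DESeq2 size factors (r = -0.825, adjusted exact permutation p = 0.0329). S1PR3 was lower in DMSO libraries with a higher GC slope and lower at 40 and 60 µM than at 80 and 100 µM, and the pooled r takes no account of the arm.

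**Figure D4:**
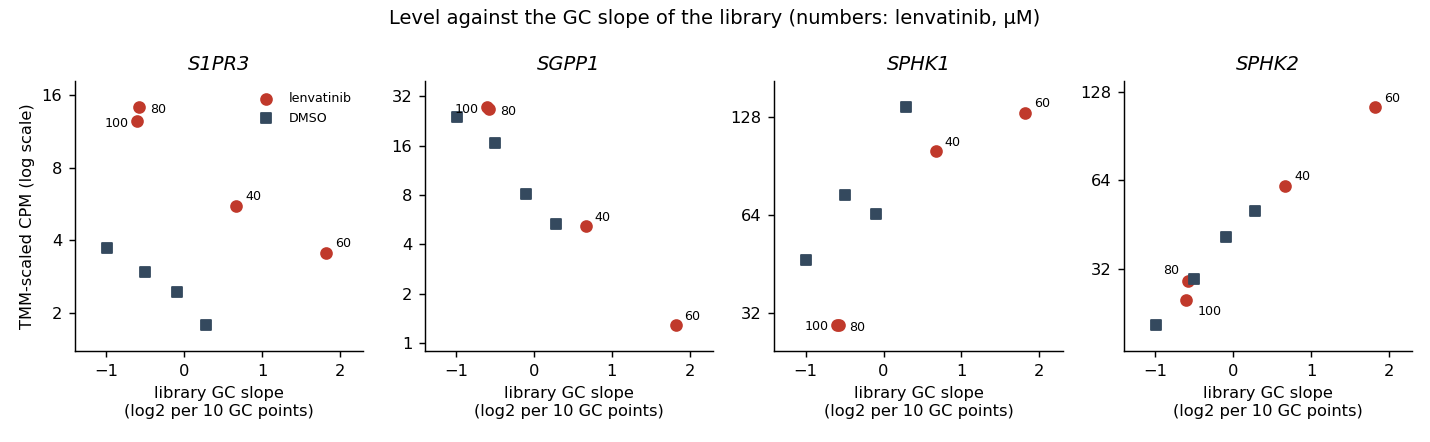
TMM-scaled CPM (y axes, log scale) against the GC slope of the library (x axes, log2 per 10 GC percentage points) for 4 genes; red circles are lenvatinib libraries with the dose in µM and dark squares DMSO libraries. SPHK2 follows 1 line over both arms (r = 0.993), while S1PR3 stands at 14.25 and 12.46 CPM at 80 and 100 µM and at 2.95 CPM in DMSO library 2, the closest to them in slope.

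The rest of the sphingolipid pathway was followed with 5 lists of 57 genes, of which 47 were tested; 4 of the lists are described. No list gene was called without the covariate, and 1 was called with it, ALDH3A2, the fatty aldehyde dehydrogenase that oxidises the aldehyde released by the lyase. ALDH3A2 had 31.8, 15.9, 62.9 and 55.7 CPM at 40, 60, 80 and 100 µM, against 17.7, 26.1, 36.3 and 22.1 CPM with DMSO. The 80 and 100 µM libraries were above all DMSO libraries, and the 60 µM library below all of them. Its log2 fold change was 0.71 ± 0.46 (SE) without the covariate and 1.08 ± 0.11 with it (edgeR, adjusted p = 0.00568). The call was lost without DMSO library 4 (adjusted p = 0.0504), without 80 µM (0.0919) and without 100 µM (0.0598) in the same edgeR fit. The count of 1 in 47 stands beside 3.26% of all genes.

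The first list, phosphatases and transporters of S1P, had 6 of 10 genes tested and a median log2 fold change of 0.33 without and -0.17 with the covariate. SPNS2, an S1P exporter, averaged 2.40 ± 2.29 CPM with lenvatinib and 1.74 ± 0.155 CPM with DMSO (SD, n = 4 each). PLPP2, a lipid phosphate phosphatase, averaged 176.8 ± 142.0 CPM with lenvatinib and 140.3 ± 72.4 CPM with DMSO (SD, n = 4 each). For both, the difference was smaller than the SD of the lenvatinib libraries, and neither was called. The covariate turned the sign, with log2 fold changes of 0.42 without and -0.48 with it for SPNS2, and of 0.33 and -0.50 for PLPP2.

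Of the genes for synthesis of the sphingoid base, 10 of 12 were tested, with medians of -0.27 without and -0.12 with the covariate. SPTSSA, a small subunit of serine palmitoyltransferase, averaged 19.3 ± 16.1 CPM with lenvatinib and 19.0 ± 11.8 CPM with DMSO (SD, n = 4 each). ORMDL3, an inhibitor of that enzyme, averaged 33.9 ± 10.5 CPM with lenvatinib and 23.7 ± 4.81 CPM with DMSO (SD, n = 4 each). Neither was called.

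Of the ceramide synthases and ceramidases, 7 of 11 were tested, with medians of 0.29 without and 0.28 with the covariate. CERS4, a ceramide synthase, averaged 21.5 ± 18.1 CPM with lenvatinib and 7.58 ± 2.60 CPM with DMSO (SD, n = 4 each), with log2 fold changes of 1.5 ± 0.62 (SE) and 0.60 ± 0.16 with the covariate (edgeR, adjusted p = 0.0798). ASAH1, the acid ceramidase that releases sphingosine in lysosomes, averaged 18.6 ± 10.2 CPM with lenvatinib and 16.1 ± 5.84 CPM with DMSO (SD, n = 4 each). Its log2 fold change was 0.21 ± 0.49 (SE), and 0.61 ± 0.15 with the covariate (edgeR, adjusted p = 0.0636).

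All 12 genes of sphingomyelin and complex sphingolipids were tested, with medians of 0.01 without and -0.02 with the covariate. SMPD3, a neutral sphingomyelinase, averaged 3.64 ± 1.22 CPM with lenvatinib and 1.71 ± 0.749 CPM with DMSO (SD, n = 4 each), with a log2 fold change of 1.31 ± 0.38 (SE) with the covariate (edgeR, adjusted p = 0.104). CERK, which phosphorylates ceramide, averaged 39.9 ± 14.4 CPM with lenvatinib and 57.7 ± 4.02 CPM with DMSO (SD, n = 4 each). No gene of these lists other than ALDH3A2 was called in either direction in the fit of all 8 libraries, and none had a called dose slope. Of the named genes, ASAH1, SPTSSA, SMPD3, CERS4 and PLPP1 were called higher and CERK lower with the covariate when the 60 µM library was left out (edgeR, adjusted p between 0.00308 for ASAH1 and 0.0408 for PLPP1), a fit that called 2755 genes. ASAH1 was also called without 40 µM (edgeR, adjusted p = 0.0328).

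The genes whose pattern over the 8 libraries was most like that of each member, once the GC slope was taken out of both, were listed by Pearson r as a description, over the 9444 named genes that averaged 5 CPM or more. For S1PR3 these were ATOH8 (r = 0.998) and GCLM (r = 0.996), whose r without that step was 0.254 and 0.752. For SPHK1 they were ETHE1 (0.984) and SOD2 (0.980), for SPHK2 HBP1 (0.970) and VPS37C (0.968), and for SGPP1 RCN1 (0.991) and FBXO2 (0.989). Without that step r was 0.914 for ETHE1, 0.0155 for SOD2, -0.947 for HBP1, 0.994 for VPS37C, 0.999 for RCN1 and -0.848 for FBXO2. SGPL1 was closest to SLC25A12 and CCNH (both 0.998), S1PR1 to VRK2 (0.966) and RELL2 (0.961), and S1PR2 to TMBIM6 (0.972) and ARIH1 (0.971). As measured, r was 0.958 for SLC25A12, 0.938 for CCNH, 0.993 for VRK2, -0.756 for RELL2, -0.177 for TMBIM6 and -0.746 for ARIH1. The likeness is therefore one of what is left after the GC slope, and several of these genes ran opposite to the member as measured. All points of a pair share the same 8 libraries and their depth, and the genes named are those with the highest r among the 9444.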

How the data were processed

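The members and gene lists were chosen with earlier results of these data known. FastQC, HISAT2, bedtools, StringTie and the GRCh38 build are named in the submitters' processing notes, without versions, and neither annotation release nor strandedness is stated. The authors deposited, per the file headers, read counts, TPM and FPKM for each gene and library. FPKM was not used, and TPM deposited by the authors served only for levels per length and 1 alternative. Counts were tested with edgeR 4.0.16 under R 4.3.3 (TMM, robust quasi-likelihood) on 11827 genes, those averaging 1 CPM or more over the 8 libraries. The arm fit had 6 residual degrees of freedom, the dose fit 5 (dose centred at 70 µM within lenvatinib, arm as a second term), and a GC slope covariate took 1 more. GC content and overlaps come from GENCODE v29. The SE is the log2 fold change divided by the root of the test statistic. Relations with the GC slope used all 40320 orders of the libraries. DESeq2 1.42.0, limma-voom 3.58.1, other scalings, filters, a replicate block and leaving out each library were alternatives. Fits without the covariate were tested on simulated counts that held no GC slope, so the fit with the covariate was not covered. Genes of the lists were named by a rule, up to 4 by the smallest p with the covariate and 2 by the dose slope, and the text describes a selection of them. One item is not reported here. A count of 0 allows 3 counts, or 0.0802 to 0.295 CPM by library totals, without the TMM factors. Intervals cover counting error only, because reads are not independent molecules.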

Additional observations from a re-analysis of the deposited data

How the results depend on the processing

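The count of genes called between lenvatinib and DMSO was 0 with edgeR, and it stayed 0 with other scalings, filters, limma-voom and when each library was left out. It was 94 with DESeq2, 386 with the GC slope covariate and 232 with the covariate and the replicate block. With the covariate and 1 library left out it ranged from 0 (without 80 µM) to 2755 (without 60 µM), with 1008 without 40 µM, 7 without 100 µM, and 27, 66, 203 and 17 without DMSO libraries 1 to 4. The dose slope gave 0 calls with edgeR and 131 with DESeq2. The log2 fold change of S1PR3 ranged from 1.41 to 2.01 when libraries were left out without the covariate, that of SPHK1 from -0.61 to 0.23, of SPHK2 from 0.12 to 0.94 and of SGPP1 from -0.28 to 0.60. The dose slope of SGPL1 turned to -0.26 with the covariate and ranged from -0.47 to 0.72 over all fits without 1 library. It was -0.12 without 100 µM, and with the covariate -0.0059 without 60 µM, -0.27 without 80 µM, and -0.32, -0.269, -0.36 and -0.267 without DMSO libraries 1 to 4. Over those fits the dose slopes of S1PR1 (-0.47 to 1.26), S1PR3 (-0.15 to 0.89), SPHK1 (-1.08 to 0.12), SPHK2 (-1.09 to 0.014, with 0.0054 without 100 µM) and SGPP1 (-0.0027 to 2.08) also changed sign, none of them called. The r of SGPL1 with the GC slope turned to 0.428 without the 2 farthest libraries and ranged from -0.875 to 0.72 when single libraries were left out. The r of S1PR2 was -0.133 in TPM. The cause of these changes was not tested. With scaling by library totals the median over all genes was -0.20 for the log2 fold change and 0.36 for the dose slope, against -0.11 and 0.06 with TMM.

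The labels do not say whether the numbers in the sample titles pair the libraries. Deviations of same-numbered libraries from their arm means correlated at 0.63, -0.46, 0.84 and -0.61. These values cannot decide it, because the levels of most genes moved with the library GC slope, which was not taken out. A replicate block alone gave 0 calls. With the block and the covariate the log2 fold change of S1PR3 was 2.05, that of SPHK1 -0.81 and that of SGPP1 0.82. S1PR3 and SPHK1 were called in that fit, which called 232 of 11827 genes, and SGPP1 was not. As above, nothing is read from these calls. Depth limits the 60 µM values most, where S1PR1 rests on 2 reads, SGPP1 on 8, S1PR3 on 22 and S1PR2 on 26.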
